A study of Mus musculus with 9 samples.

Results

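Il10 and Il24 are neighbouring cytokine genes of the IL-10 family on mouse chromosome 1. They were followed here as 2 of the 7189 gene names found in 5 lists that the authors made from mouse T helper 1 (Th1) cells. Besides the expression values of both genes, all regions were taken that name either gene as closest, or that lie on chromosome 1 between 132800000 and 133050000 (build mm9). That gave 13 of 14844 listed regions. All groups were Th1 cells of the C57BL/6 strain with a T-bet-ZsGreen reporter, and the T-bet gene Tbx21 was either intact (wild type) or knocked out (Tbx21-/-, labelled Tbx21-KO). In each group naive CD4+ T cells were primed with anti-CD3, anti-CD28, hIL-2, IL-12 at 10 ng/ml and the IL-4-blocking antibody 11B11 at 10 µg/ml on irradiated splenocytes without T cells. The activated cells were kept in medium with IL-2 at 50 U/ml, and reporter-positive cells were then sorted and grown in the Th1 conditions for 3 more days. RNA-seq was made from 2 libraries per genotype, T-bet ChIP-seq from 1 library of wild type cells, and ChIP-seq of 2 histone marks from 1 library per genotype and mark. The labels used here do not say how many animals the cells came from or how old they were.

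IL-10 is an anti-inflammatory cytokine that restrains macrophages and dendritic cells through the receptor chains Il10ra and Il10rb and the transcription factor Stat3. Many T helper subsets make it, Th1 cells among them, where it limits tissue damage during infection. IL-24 belongs to the IL-20 branch of the same family and acts mainly on epithelial cells, through receptors built from Il20ra, Il20rb and Il22ra1. In the mouse it is also known as FISP and was described as a secreted protein of Th2 cells. T-bet is the lineage transcription factor of Th1 cells. Enhancers often carry the histone mark H3K4me1, and chromatin silenced by Polycomb complexes carries H3K27me3.

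Il10 and Il24 transcripts were lower in Tbx21-/- than in wild type Th1 cells, by a similar proportion. Levels are given in FPKM, that is, fragments adjusted for the length of the transcript and the depth of the library, with the duplicate libraries merged by the authors into 1 value per genotype. Il10 stood at 34.6 FPKM in wild type cells and at 14.6 FPKM in Tbx21-/- cells, so that 42.3% of the wild type level remained. Il24 stood at 20.8 and 9.25 FPKM, with 44.5% remaining. In the authors' deposited table the log2 ratio of Tbx21-/- over wild type was -1.20 for Il10 and -1.11 for Il24, a decrease of 2.30-fold and 2.16-fold. The levels of the neighbours kept nearly the same proportion to each other in both genotypes, since Il10 had 1.66 times the FPKM of Il24 in wild type and 1.58 times in Tbx21-/- cells. The log2 ratios differed by -0.10, and whether that exceeds the spread between the duplicates cannot be judged, because the lists give no value per library. No error or test of either change can be given for the same reason. The cells were measured in bulk, so fewer producing cells and less transcript per cell cannot be told apart.

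These changes were on the smaller side among the genes that the authors listed as under positive regulation by T-bet. Of all 430 genes on the 2 expression lists, 219 or 50.9% were on this positive list, and 0.963% of 21900 protein-coding genes were. By size of the log2 ratio, Il10 ranked 162nd and Il24 189th of 219, so that 26.0% of the list changed less than Il10 and 13.7% less than Il24. The median decrease over the list was 3.00-fold (log2 ratio -1.59, from the authors' deposited table). Their wild type levels were not low within the list, with Il10 above 70.3% and Il24 above 56.2% of its genes. The median of the list was 17.5 FPKM in wild type against 4.70 FPKM in Tbx21-/- cells, so Il10 and Il24 lay above that median in each genotype.

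Among T helper cytokine genes, Il10 and Il24 were on the same list as Ifng and on the opposite list to Il4, Il5 and Il13. Of 20 such genes, 5 were on the positive list and 6 on the negative list (genes higher in Tbx21-/- cells). The other 9 were on neither, among them Tnf, Il2 and Il9. Over all coding genes 0.963% were on the positive list, and the share on the negative list was not computed. No listed gene was below 5.02 FPKM in its higher genotype, so absence from both lists does not show that a gene was unchanged. The positive genes besides Il10 and Il24 were Ifng, Lta and Csf2. Ifng, the signature Th1 cytokine, had the largest decrease of these 5, with -5.71 as its log2 ratio in the authors' deposited table. Csf2, which encodes GM-CSF, was the closest to Il10 in level, with 31.4 FPKM in wild type against 12.2 FPKM in Tbx21-/- cells (log2 ratio -1.43, from the authors' deposited table). Lta, encoding lymphotoxin alpha, was at a much higher level, 490 and 208 FPKM, with -1.26 as its log2 ratio in the authors' deposited table. The genes on the negative list were Il4, Il5, Il13, Il21, Areg and Ebi3, with log2 ratios from 1.45 for Il13 to 2.39 for Il21 in the authors' deposited table. In wild type cells Il10 was therefore above Il5 (18.3 FPKM) and below Il13 (76.2 FPKM), whereas in Tbx21-/- cells Il10 was below Il5 (77.2 FPKM) and Il13 (204 FPKM).

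**Figure D1:**
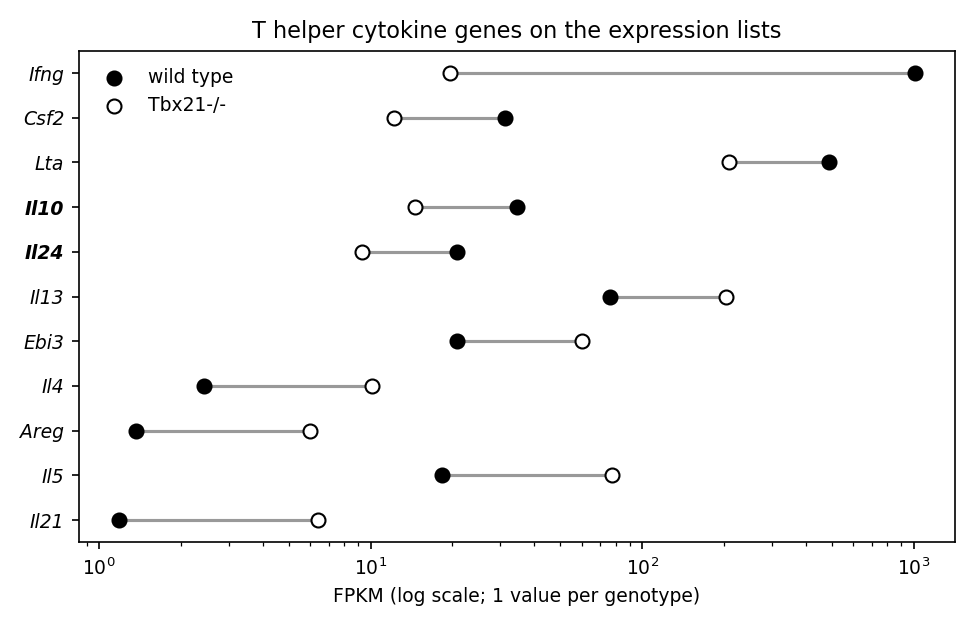
Expression of the 11 T helper cytokine genes found on an expression list, in FPKM on a log scale, with a filled point for wild type and an open point for Tbx21-/- cells (the authors' value per genotype, without error). Il10 and Il24 shift to the left in Tbx21-/- cells, as do Ifng, Csf2 and Lta, while the 6 other genes shift to the right.

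The genes whose log2 ratio lay nearest to that of Il10 on the positive list were Pltp, a phospholipid transfer protein, Zbtb32, a zinc finger repressor of lymphocytes, and Pram1, an adaptor protein. Their log2 ratios ran from -1.21 to -1.20 in the authors' deposited table. For Il24 they were Serpina3f, a serine protease inhibitor, Actn1, an actin-crosslinking protein, and Il18rap, a subunit of the interleukin-18 receptor, with log2 ratios of -1.11, -1.11 and -1.10 in the authors' deposited table. Likeness was measured here as the difference in log2 ratio over 2 genotypes only. None of these 6 genes had a T-bet peak. At least 1 peak was assigned to 45% of positive-list genes and 10.4% of coding genes, so most genes had none. Listed H3K4me1 regions numbered 3 for Pltp and 1 each for Zbtb32 and Pram1, against 3 for Il10. They numbered 3 for Serpina3f and 2 each for Actn1 and Il18rap, against 2 for Il24, and Actn1 also had 2 H3K27me3 regions.

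The checks of the labels bear on how these values are read. Tbx21 stood at 271 FPKM in wild type and still at 124 FPKM in the group labelled Tbx21-KO, and FPKM does not show which exons the reads came from. Of 8 Th1 markers 7 were on the positive list, against 0.963% of coding genes, and Tbx21 itself was among the 7. Of 6 general CD4 T cell markers, 0 were on either list, and levels of genes on neither list were not analysed here. IL-10 is also made by regulatory T cells, B cells and macrophages. Of 4 regulatory T cell markers, Foxp3 and Ctla4 were on the negative list, opposite to Il10, and Ikzf2 and Il2ra were on neither list. The share of all coding genes on the negative list was not computed. The summed level of Foxp3 and Ctla4 was 26.1 FPKM in wild type against 83.5 FPKM in Tbx21-/- cells. Most of each sum was Ctla4, which rose from 24.4 to 66.3 FPKM, while Foxp3 rose from 1.73 to 17.3 FPKM. Of 8 B and plasma cell markers, Cd79a, Jchain (listed as Igj) and Pou2af1 were on the negative list and Blk on the positive list. The other 4 were on neither. The summed level of the listed markers was 13.8 FPKM in wild type, mostly Blk (12.8 FPKM). In Tbx21-/- cells it was 67.7 FPKM, mostly Jchain (48.9 FPKM). Macrophage and dendritic cell markers were on a list in 0 of 8 cases. The positive list held Cd8a and Nkg7 out of 6 markers of CD8 T and NK cells, against 0.963% of coding genes. Cd8b1, Eomes, Klrb1c and Ncr1 were on neither list. The summed level of Cd8a and Nkg7 was 611 FPKM in wild type against 61.9 FPKM in Tbx21-/- cells. It was mostly Nkg7, which fell from 571 to 42.9 FPKM. Cd8a fell by a smaller proportion, from 39.6 to 19.1 FPKM, so the sum does not describe both genes. Whether any of these other cell types were present was not tested, nor was their part in the Il10 and Il24 values.

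Along the chromosome the 13 regions fell into groups in the order of the genes. RefSeq (assembly GRCm38.p6, used for gene order only) places Il24, Il20, Il19, Il10, Mapkapk2 and Dyrk3 next to each other. The listed regions, spread over 250.4 kb from 132781773 to 133032195, named Il24, Il19, Il10, Mapkapk2 and Dyrk3 as closest gene in that same order, and 0 named Il20. H3K4me1 regions came first: 2 at Il24, 2 at Il19 and 3 at Il10. T-bet peaks followed, 3 at Il10 and 1 at Mapkapk2, and then an H3K27me3 region at Mapkapk2 and an H3K4me1 region at Dyrk3. The positions of these regions relative to exons, introns and promoters were not analysed here.

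**Figure D2:**
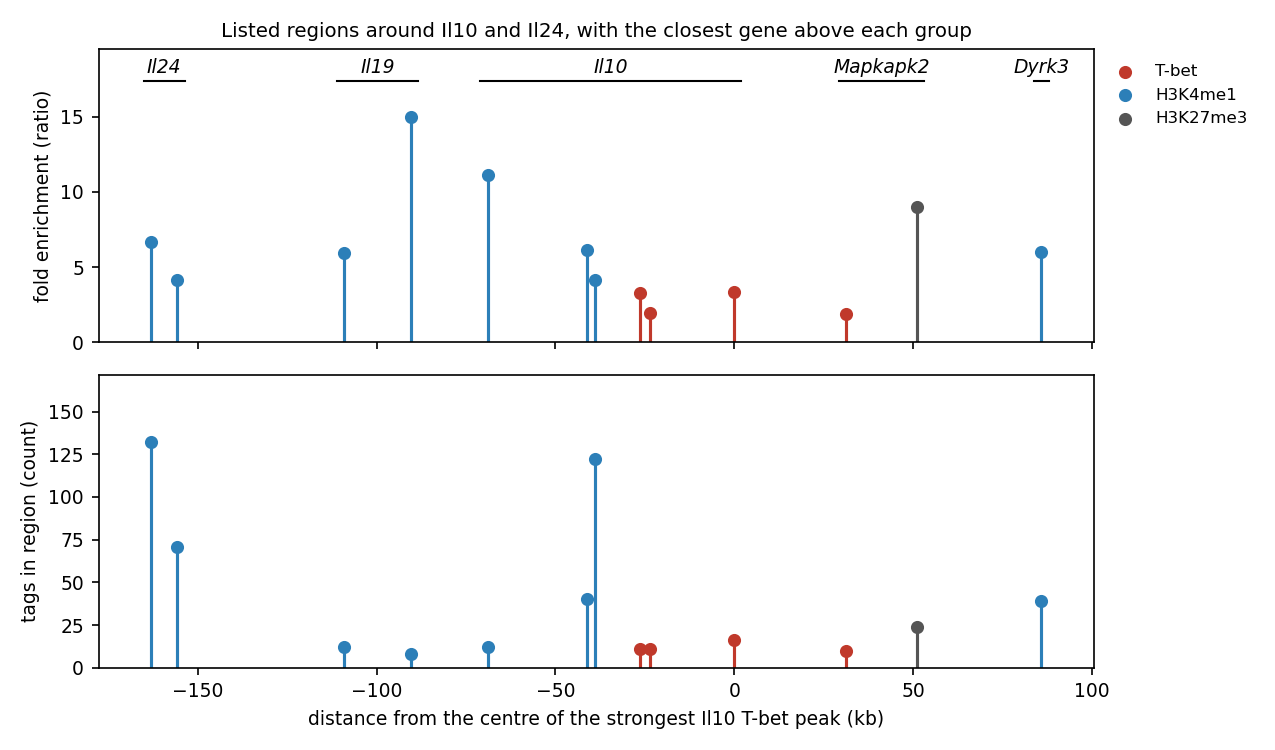
Fold enrichment (upper panel, a ratio set by the authors' peak caller) and tags (lower panel, a count) of the 13 listed regions, by distance in kb from the centre of the strongest Il10 T-bet peak, with the closest gene above each group. The H3K4me1 regions of Il24, Il19 and Il10 lie to the left of the T-bet peaks, and the 2 regions with the most tags, 132 and 122, are at Il24 and Il10.

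T-bet binding was listed at Il10 and not at Il24. The strongest of the 3 Il10 peaks lay at chr1:132945898-132946241, with 16 tags (exact Poisson 95% interval 9.15 to 26.0) and a fold enrichment of 3.38. A peak at chr1:132919489-132919799 had 11 tags (5.49 to 19.7) and a fold enrichment of 3.25. The third, at chr1:132922375-132922787, also had 11 tags, with a fold enrichment of 1.98. The intervals cover counting error only and overlap each other, so the peaks cannot be ranked by tags at this depth. Fold enrichments are the authors' own values, and the T-bet library was set against Th1 input reads, per the labels.

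The place of the Il10 peaks within the whole list of 3226 T-bet peaks depended on the measure. The median peak had 9 tags and a fold enrichment of 2.62. The fold enrichment of the peak at 132945898 was above 72.6% of the list, that of the peak at 132919489 above 69.6%, and that of the peak at 132922375 above 19.7%. By tags they stood higher, with the 16-tag peak above 86.5% of the list and the 11-tag peaks above 64.1%. Per kb of peak, the same 3 were above 95.8%, 86.8% and 55.4%. Their 38 tags in all ranked Il10 86th of 2271 coding genes with a T-bet peak, and 15th of 95 on the positive list. Such a total grows with the number of peaks. By the fold enrichment of its strongest peak, Il10 ranked 727th of the 2271 and 45th of the 95. Their false discovery rates as given by the authors were 0.33%, 0.28% and 0.24%, against a median of 0.28%. The peak with the lowest fold enrichment of the 3 thus had the lowest false discovery rate. At least 3 T-bet peaks were assigned to 129 of 21900 coding genes, or 0.589%, while 10.4% had at least 1. Among the 211 positive-list genes matched to a coding gene, 18 or 8.53% had at least 3 peaks and 45% had at least 1. The peaks of Il10 spread over 26.8 kb. The median spread was 53.3 kb over the 84 coding genes with 3 peaks, of which 25 had a narrower spread than Il10. Over the 11 positive-list genes with 3 peaks, the spread of Il10 was itself the median, and 5 were narrower.

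**Figure D3:**
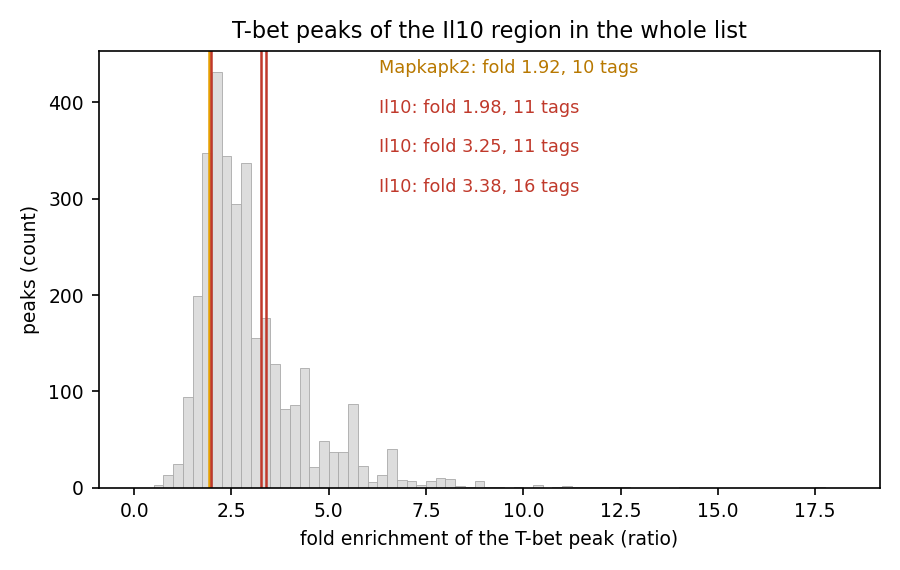
Distribution of the fold enrichment (a ratio) over all 3226 T-bet peaks, as a count of peaks per bin, with vertical lines at the 3 Il10 peaks and at the Mapkapk2 peak. A pair of Il10 peaks, at 3.25 and 3.38, lies above the median of 2.62, and the third, at 1.98, lies close to the Mapkapk2 peak at 1.92.

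The fourth T-bet peak of the region named Mapkapk2, a kinase gene downstream of p38 signalling that is next to Il10. It lay at chr1:132977247-132977569, 31.0 kb beyond the strongest Il10 peak, with 10 tags (exact Poisson 95% interval 4.80 to 18.4) and a fold enrichment of 1.92, above 17.6% of the list. Mapkapk2 was on neither expression list. The assignment to Mapkapk2 or Il10 is by the closest gene the authors gave and does not show which gene a peak acts on. From Il24, the nearest T-bet peak was the Il10 peak at 132919489, 128.3 kb from the nearer of the Il24 H3K4me1 regions.

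Il24 and Il10 each had listed H3K4me1 regions, with similar tag totals. The list is named for both genotypes and gives 1 tag count per region. The genotype with the stronger signal is not named, so no direction of change can be read from a region. At Il24 the first region, at chr1:132781773-132784268, had 132 tags over 2496 bp and a fold enrichment of 6.69. The second, at chr1:132789562-132791187, had 71 tags over 1626 bp and a fold enrichment of 4.12. The first of these had more tags than 94.5% of the 7669 listed regions, and the second more than 84.3%.

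At Il10 the regions were more uneven. The region nearest to the T-bet peaks, at chr1:132905947-132908448, was the widest of the 3, with 122 tags over 2502 bp and a fold enrichment of 4.14. A region 0.615 kb before it, at chr1:132904391-132905331, had 40 tags over 941 bp and a fold enrichment of 6.14. The third, at chr1:132876897-132877309, lay 27.1 kb further away and had 12 tags over 413 bp and a fold enrichment of 11.1. The wide region had more tags than 93.6% of the list but a fold enrichment above only 9.98% of it. For the narrow region the order was turned round, with more tags than 12.8% and a fold enrichment above 80.7% of the list.

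Summed over its regions, Il24 had 203 tags (exact Poisson 95% interval 176 to 233) over 4122 bp, and Il10 had 174 tags (149 to 202) over 3856 bp. Per kb of listed region this was 49.2 tags (42.7 to 56.5) for Il24 and 45.1 (38.7 to 52.4) for Il10, with intervals that overlap. The median over all listed regions was 39.9 tags per kb. By tag total, Il24 ranked 311th and Il10 393rd of 3764 coding genes with a region, whose median was 41 tags. Among the 148 positive-list genes with a region, whose median was 130 tags, the same totals ranked 47th and 56th. By the fold enrichment of the strongest region the places were lower. Il24 ranked 2334th of the 3764 and 117th of the 148, and Il10 ranked 950th and 63rd.

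**Figure D4:**
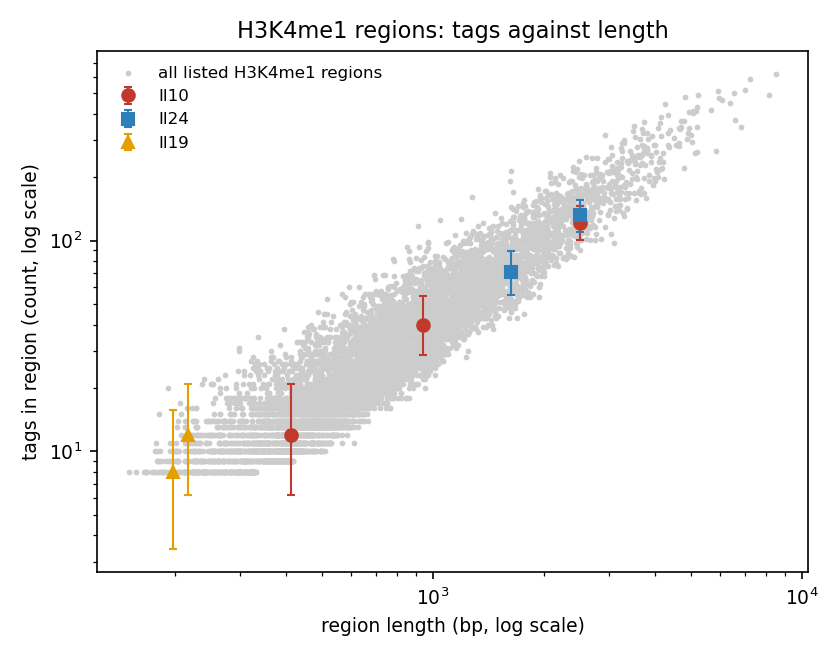
Tags (count) against length (bp) of H3K4me1 regions, both on log scales, with all listed regions in grey and the regions of Il10, Il24 and Il19 in colour with exact Poisson 95% intervals. The widest Il24 and Il10 regions, with 132 and 122 tags, lie together near the upper end, and the 2 Il19 regions, with 12 and 8 tags, lie at the lower end.

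Il19, a cytokine gene between Il24 and Il10 that is also of the IL-20 branch, had 2 small H3K4me1 regions and was on neither expression list. The region at chr1:132836946-132837161 had 12 tags and a fold enrichment of 5.93. The region at chr1:132855627-132855823 had 8 tags, the smallest number in the list, and a fold enrichment of 14.98, the highest of the 13 regions here. That fold enrichment was shared by 99 of the listed H3K4me1 regions, with 8 to 30 tags. The value of the narrow Il10 region, 11.11, was shared by 78 regions with 8 to 86 tags. Larger regions also shared values: 4.14, as at the wide Il10 region, was found for 11 regions with 32 to 221 tags. Fold enrichments therefore take repeated values and rank the regions only roughly.

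Counts of H3K4me1 regions were not unusual for positive-list genes. At least 2 regions, as at Il24, were assigned to 6.23% of coding genes and 54% of positive-list genes, and at least 3, as at Il10, to 2.89% and 41.7%. At least 1 region was assigned to 17.2% and 70.1%. At least 3 T-bet peaks together with at least 3 H3K4me1 regions, as at Il10, were found for 63 or 0.288% of coding genes and for 14 or 6.64% of positive-list genes. The positive list holds other genes with 3 or more T-bet peaks that changed by a like amount, such as Btg1, an antiproliferative gene, with 8 peaks and a log2 ratio, from the authors' deposited table, of -1.19. Among the 211 matched positive-list genes, Il10 alone had exactly 3 T-bet peaks, 3 regions of H3K4me1 and 0 of H3K27me3. The share of all coding genes with such an exact set of counts was not computed. The counts of Il24, with 0 T-bet peaks, 2 regions of H3K4me1 and 0 of H3K27me3, were shared by 14 of the 211, Il24 included. Irx3, a homeobox gene, was among them, with the largest decrease of the list (log2 ratio -8.21, from the authors' deposited table).

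**Figure D5:**
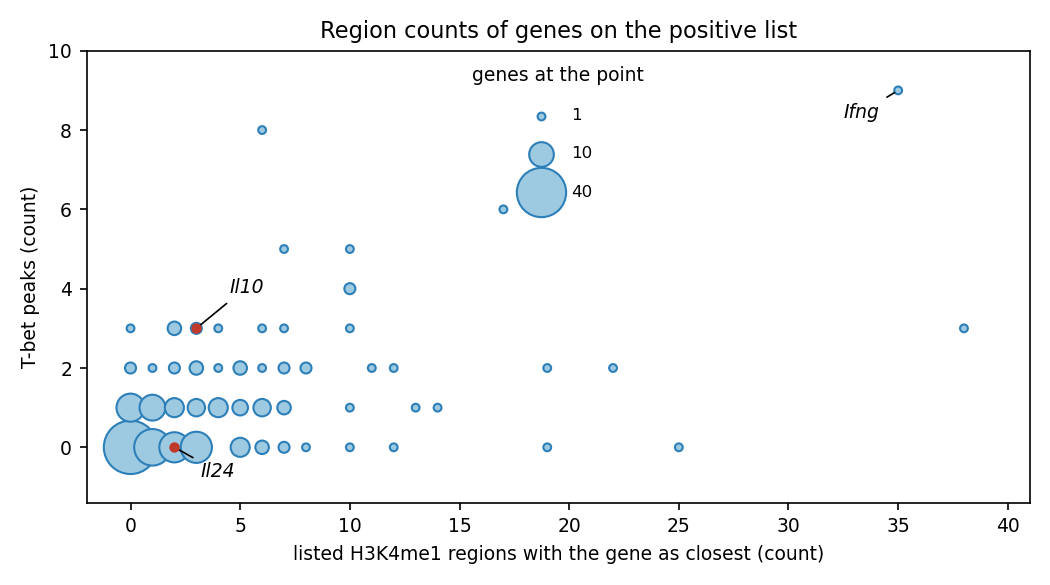
Number of T-bet peaks against number of listed H3K4me1 regions for the 211 positive-list genes matched to a coding gene, with the area of a point showing how many genes share it. Il10 lies at 3 peaks and 3 regions, Il24 at 0 peaks and 2 regions, and Ifng far from both at 9 peaks and 35 regions.

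The T-bet peaks of the region did not touch a listed H3K4me1 region. Over all 3226 T-bet peaks, 308 or 9.55% shared at least 1 base with such a region, and the median gap was 37.2 kb. In the Il10 region 0 of 4 peaks did. The gaps to the nearest H3K4me1 region were 11.0, 13.9 and 37.4 kb for the Il10 peaks, in each case to the wide region at 132905947, and 54.1 kb for the Mapkapk2 peak. Since the list holds selected regions, chromatin at the T-bet peaks may carry the mark without being listed.

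H3K27me3 regions were listed at neither Il10 nor Il24. At least 1 was assigned to 11.8% of coding genes and to 16.1% of positive-list genes, so their absence is shared with most genes. The single H3K27me3 region of the stretch was closest to Mapkapk2, at chr1:132996967-132997522, with 24 tags (exact Poisson 95% interval 15.4 to 35.7) and a fold enrichment of 9.02, above 76.9% of the 3949 listed regions. It lay 50.7 kb from the strongest Il10 T-bet peak and 19.4 kb from the Mapkapk2 T-bet peak. The remaining region of the stretch, an H3K4me1 region closest to the kinase gene Dyrk3 at chr1:133031694-133032195, had 39 tags and a fold enrichment of 6.01. At 77.7 tags per kb (55.2 to 106) it was denser than 97.0% of listed H3K4me1 regions.

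Other genes of the IL-10 system are given by their roles. Of 14 IL-10 family cytokine and receptor genes, Il10 and Il24 were on the positive list, 0 were on the negative list and 12 on neither. Over all coding genes 0.963% were on the positive list. Il10 and Il24 are the genes followed here, so their place there is no separate result about the family. Of the 14, 5 had a T-bet peak, 6 had an H3K4me1 region and 0 had an H3K27me3 region, where over all coding genes the shares were 10.4%, 17.2% and 11.8%. Whether the counts of this or the next gene lists differ from those shares was not tested. Il10rb, the receptor chain shared by several family members, had 2 T-bet peaks, the stronger with a fold enrichment of 6.45, and 3 H3K4me1 regions. Il10ra, the chain that binds IL-10 itself, had 0 listed regions of any kind. Of the chains that bind IL-24, Il20ra had 1 T-bet peak and 1 H3K4me1 region, Il20rb had 2 T-bet peaks, and Il22ra1 had 0 listed regions. Il22ra2, a soluble decoy receptor for IL-22, had 1 T-bet peak and 1 H3K4me1 region, and the cytokine genes Il20 and Il22 had 0 listed regions.

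Of 12 genes of IL-10 signalling and its targets, 0 were on an expression list. Over all coding genes 0.963% were on the positive list, and the share on the negative list was not computed. A count of 0 among 12 therefore does not show that this signalling was unchanged. Of the 12, 6 had a T-bet peak, 5 an H3K4me1 region and 6 an H3K27me3 region, against 10.4%, 17.2% and 11.8% of coding genes. The highest T-bet fold enrichment of the 12, 5.65, was at Etv3, which had 2 T-bet peaks and 2 H3K27me3 regions. Jak1, a kinase bound to the IL-10 receptor, had 1 T-bet peak with a fold enrichment of 4.05 and 1 H3K4me1 region. Stat3, which carries the IL-10 signal, had 1 peak with a fold enrichment of 2.83 and 1 H3K27me3 region. Socs3, a feedback inhibitor induced through Stat3, had 1 peak, 1 H3K4me1 region and 3 H3K27me3 regions.

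Of 24 factors known to act on Il10 in T cells, 3 were on the positive list, 0 on the negative list and 21 on neither. Over all coding genes 0.963% were on the positive list. Those on the list were Tbx21, Bhlhe40 and Hlx. Tbx21 is the gene that was knocked out, so its place there is no separate result. Bhlhe40, a repressor of Il10 in T helper cells, went from 290 to 147 FPKM, and so was lower in the same cells as Il10. Hlx, a homeobox factor of Th1 cells, went from 17.9 to 4.53 FPKM. Activators of Il10 such as Maf, Prdm1, Batf and Irf4 were on neither list. Among the 24 factors 16 had a T-bet peak, 15 an H3K4me1 region and 11 an H3K27me3 region, beside the same shares of 10.4%, 17.2% and 11.8% over all coding genes. Maf had 1 T-bet peak, 3 H3K4me1 and 5 H3K27me3 regions. Prdm1, which encodes Blimp-1, had 1, 5 and 3. Stat4, which carries the IL-12 signal, had 4 T-bet peaks, 3 regions of H3K4me1 and 0 of H3K27me3. Gata3, the lineage factor of Th2 cells, had 5, 5 and 3.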

How the data were processed

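The data are 5 lists deposited by the authors as sheets of a workbook, from 9 samples in 7 groups assigned by sample title. Tools named in the submitters' processing notes, with no role given, are TopHat 1.3.3, DESeq, Bowtie 0.12.7, CASAVA 1.7 and MACS 1.4.1, and the build is mm9. Per the file headers, the authors gave 1 FPKM value per genotype and a log2 ratio for each gene. Every listed gene changed at least 2-fold in that ratio, and the sources used here do not give the test that selected them. In the genotype where it was higher, every listed gene had at least 5.02 FPKM (negative list) or 5.11 FPKM (positive list). Region lists hold, per the file headers, the authors' tags (whole counts), a fold enrichment (a ratio to the caller's control) and, for T-bet, a false discovery rate in percent. For the histone lists the sources used here name no control. Sequencing depth is unknown.

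Region positions were used as given (first base counted as 1). Gene symbols were matched to 21900 protein-coding RefSeq genes by symbol or synonym. A date stood in place of the gene name in 28 regions. Ranks, gaps, an overlap of at least 1 base and exact Poisson 95% intervals of tags were computed with Python 3.11.15, pandas 2.3.3, numpy 2.4.6 and SciPy 1.17.1, and plotted with matplotlib 3.10.9. The overlap, gap and rank functions were tested on simulated data, and the Poisson intervals were not. No test between groups was made, since no list holds values per library. Named genes were Il10 and Il24, the closest genes of the stretch, the 3 nearest genes in log2 ratio and members of gene lists; Btg1 and Irx3 were chosen after their values were seen. The members and lists were chosen with earlier results of these data known. Promoter sequences for Il10 and Il24 were not used here.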

Additional observations from a re-analysis of the deposited data

How the results depend on the processing

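Of 18 alternatives over 8 results, only the 4 for the log2 ratios have a direction that could reverse, and 0 did; the others are counts and ranks. The log2 ratio of Il10 was -1.24 from the FPKM values and -1.19 from FPKM + 1, and that of Il24 -1.17 and -1.09. Among the 154 positive-list genes with at least 10 FPKM in wild type, Il10 ranked 112th and Il24 130th by size of change. With a fold enrichment of at least 2, 2 of the 4 T-bet peaks remained, and with at least the median fold enrichment of the list, 2 of the 8 H3K4me1 regions remained. Counting only regions with Il10 or Il24 as closest gene left 5 H3K4me1 regions. The other 9 alternatives, among them a window wider by 100 kb on each side and other definitions of overlap, gave counts within 1.5 times the reported ones. Leaving out a replicate was not run, because each list holds 1 value per genotype or per region. No paired analysis was possible because the deposited values carry no replicate numbers. Low tag numbers limit the ranking of the T-bet peaks and of the small Il19 and Il10 regions.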

Other observations

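The listed regions next to the stretch lay at very different distances. Before the Il24 regions, the nearest listed H3K4me1 region was closest to the chemokine receptor gene Cxcr4, 2086 kb away, the nearest T-bet peak was closest to the complement regulator gene Cd55, 376 kb away, and the nearest H3K27me3 region was closest to C4bp-ps1, 211 kb away. Beyond the window, the next T-bet peak, 46.5 kb away, and the next H3K4me1 region, 93.3 kb away, were both closest to Rassf5, which encodes an adaptor of integrin activation in lymphocytes. That peak, at chr1:133096513-133096982, had 15 tags and a fold enrichment of 1.77. The H3K4me1 region, at chr1:133143330-133143869, had 15 tags and a fold enrichment of 6.00. On the whole of chromosome 1 there were 2.83 listed H3K4me1 regions, 1.28 T-bet peaks and 1.37 H3K27me3 regions per Mb. The 250 kb window held 6, 4 and 1, as plain counts. Since the window was placed around Il10 and Il24 beforehand, it is not a random sample of the chromosome. A difference in density was not tested.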
